A study of Mus musculus with 28 samples.

Results

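The 9 genes described here, Mbp, Mog, Mag, Mobp, Cnp, Mal, Cldn11, Opalin and Ermn, encode proteins of the myelin sheath or of the mature oligodendrocyte that makes it. They were taken by name from a table of raw read counts for 55487 genes of the mouse hypothalamus, and all 9 were found. All mice carried the LepRbeGFP-L10a reporter, which puts a green tag on ribosomes of cells that express LepRb, the long isoform of the leptin receptor. Food was removed at lights-on, and mixed male and female mice of 10 to 13 weeks received leptin (metreleptin, 5 mg/kg, intraperitoneal) or vehicle at that time. Antibodies against eGFP separated each hypothalamic lysate into a bead library (RNA captured with tagged ribosomes) and a depleted library (RNA left in the supernatant). The 14 lysates gave 28 libraries: wild type at 3 h with 4 vehicle and 3 leptin lysates, wild type at 10 h with 1 vehicle and 3 leptin lysates, and Lepob/ob (ob/ob, without functional leptin) at 10 h with 2 vehicle and 1 leptin lysate. The labels do not say whether a lysate came from 1 mouse or from several, so p-values measure the spread between lysates, which may be technical.

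Oligodendrocytes wrap axons with stacked membrane, and their myelin genes are switched on together late in differentiation under transcription factors such as Sox10 and Myrf. Compact myelin holds Mbp and Mobp between its layers, Mag faces the axon, Mog lies on the outer surface, and Cldn11 forms the tight junctions that seal the sheath. Mbp mRNA is also known to be carried into the processes and translated there. In the hypothalamus myelin is densest in the tracts that cross or border it, while LepRb is known chiefly as a receptor of neurons.

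Bead libraries held 21277982 to 42267040 counts and depleted libraries 19649105 to 41804049. Levels below are counts per 1000000 counts of a library (CPM), scaled by TMM. The 9 genes had 179 to 68198 counts per library, so counting error alone was 0.383% to 7.47% and all 9 passed the filter on low counts in every fit. Lepr, the receptor gene, was higher in beads in all 14 lysates, by 1.58 to 2.77 on the log2 scale. Tissue other than hypothalamus was visible in 2 lysates of wild type at 3 h: the growth hormone gene Gh of the pituitary stood at 233 CPM in the depleted library of vehicle m3 and 1268 CPM in that of leptin f2, against 0.073 to 1.4 CPM in the other 3 h depleted libraries. At 10 h ob/ob leptin 1 held 121 CPM of Gh in its depleted library, and the others held 1.5 CPM or less. Since ob/ob leptin 1 is the only ob/ob leptin lysate, the 10 h leptin effect over both genotypes could not be refitted without it. With exceptions, the comparisons that use the 3 h lysates are therefore also given without m3 and f2. Not refitted were the fraction difference within wild type at 3 h alone and the wild-type leptin effect at 10 h against 3 h. All wild-type 3 h libraries were sequenced in 1 run, the wild-type 10 h libraries in another and the ob/ob libraries in the last, so time, genotype and run cannot be told apart.

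In the depleted fraction the 9 genes together took 0.326% to 0.414% of the scaled counts. Per kilobase of annotated exon, Cnp was at 200 ± 15.5 CPM per kb (SD, n = 14 libraries). Mbp, which compacts the inner faces of the membrane, was next at 183 ± 11.8 CPM per kb, within the spread of Cnp. Mal, a proteolipid of membrane rafts, had 110 ± 15.9, Mobp 91.1 ± 11.2 and Cldn11 78.9 ± 14.3 CPM per kb, and neighbours among these overlapped within their spread. Mog followed at 53.8 ± 7.84, then Ermn (an actin-binding protein of mature oligodendrocytes) at 35.9 ± 3.36 and Mag at 33.2 ± 6.35, the last pair overlapping. Opalin, a transmembrane glycoprotein of oligodendrocytes, was lowest at 12.8 ± 2.28 CPM per kb. In beads Cnp (82.4 ± 12.9) and Mbp (72.7 ± 27.9 CPM per kb) were again highest, followed by Mobp (34.5 ± 13), Mal (33.5 ± 12.3) and Cldn11 (28.5 ± 9.55). Mog (15.8 ± 5.04), Mag (14.7 ± 7.72), Ermn (9.28 ± 3.23) and Opalin (4.21 ± 1.07 CPM per kb) came last, and neighbours in this order overlapped within 1 SD except Ermn and Opalin. The lengths are unions of all annotated exons, so a gene with many alternative exons, such as Mbp, is set lower than its main transcript would be.

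The depleted libraries resembled each other more than the bead libraries did. Mbp ranged from 1322 to 1702 CPM over the 14 depleted libraries, with a coefficient of variation (CV) of 6.48%. In the 14 bead libraries it ranged from 355 to 1255 CPM, with a CV of 38.4%. Relative to its mean Mag varied most in beads, 23.7 to 137 CPM with a CV of 52.7%, against 90.7 to 188 CPM and 19.1% in the depleted fraction. Cnp was the steadiest in beads, 240 to 361 CPM with a CV of 15.7%. In the depleted fraction Opalin ranged from 18.4 to 46.6 CPM, where the lowest library, ob/ob vehicle 2, lay well below the next at 33.5 CPM.

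**Figure D1:**
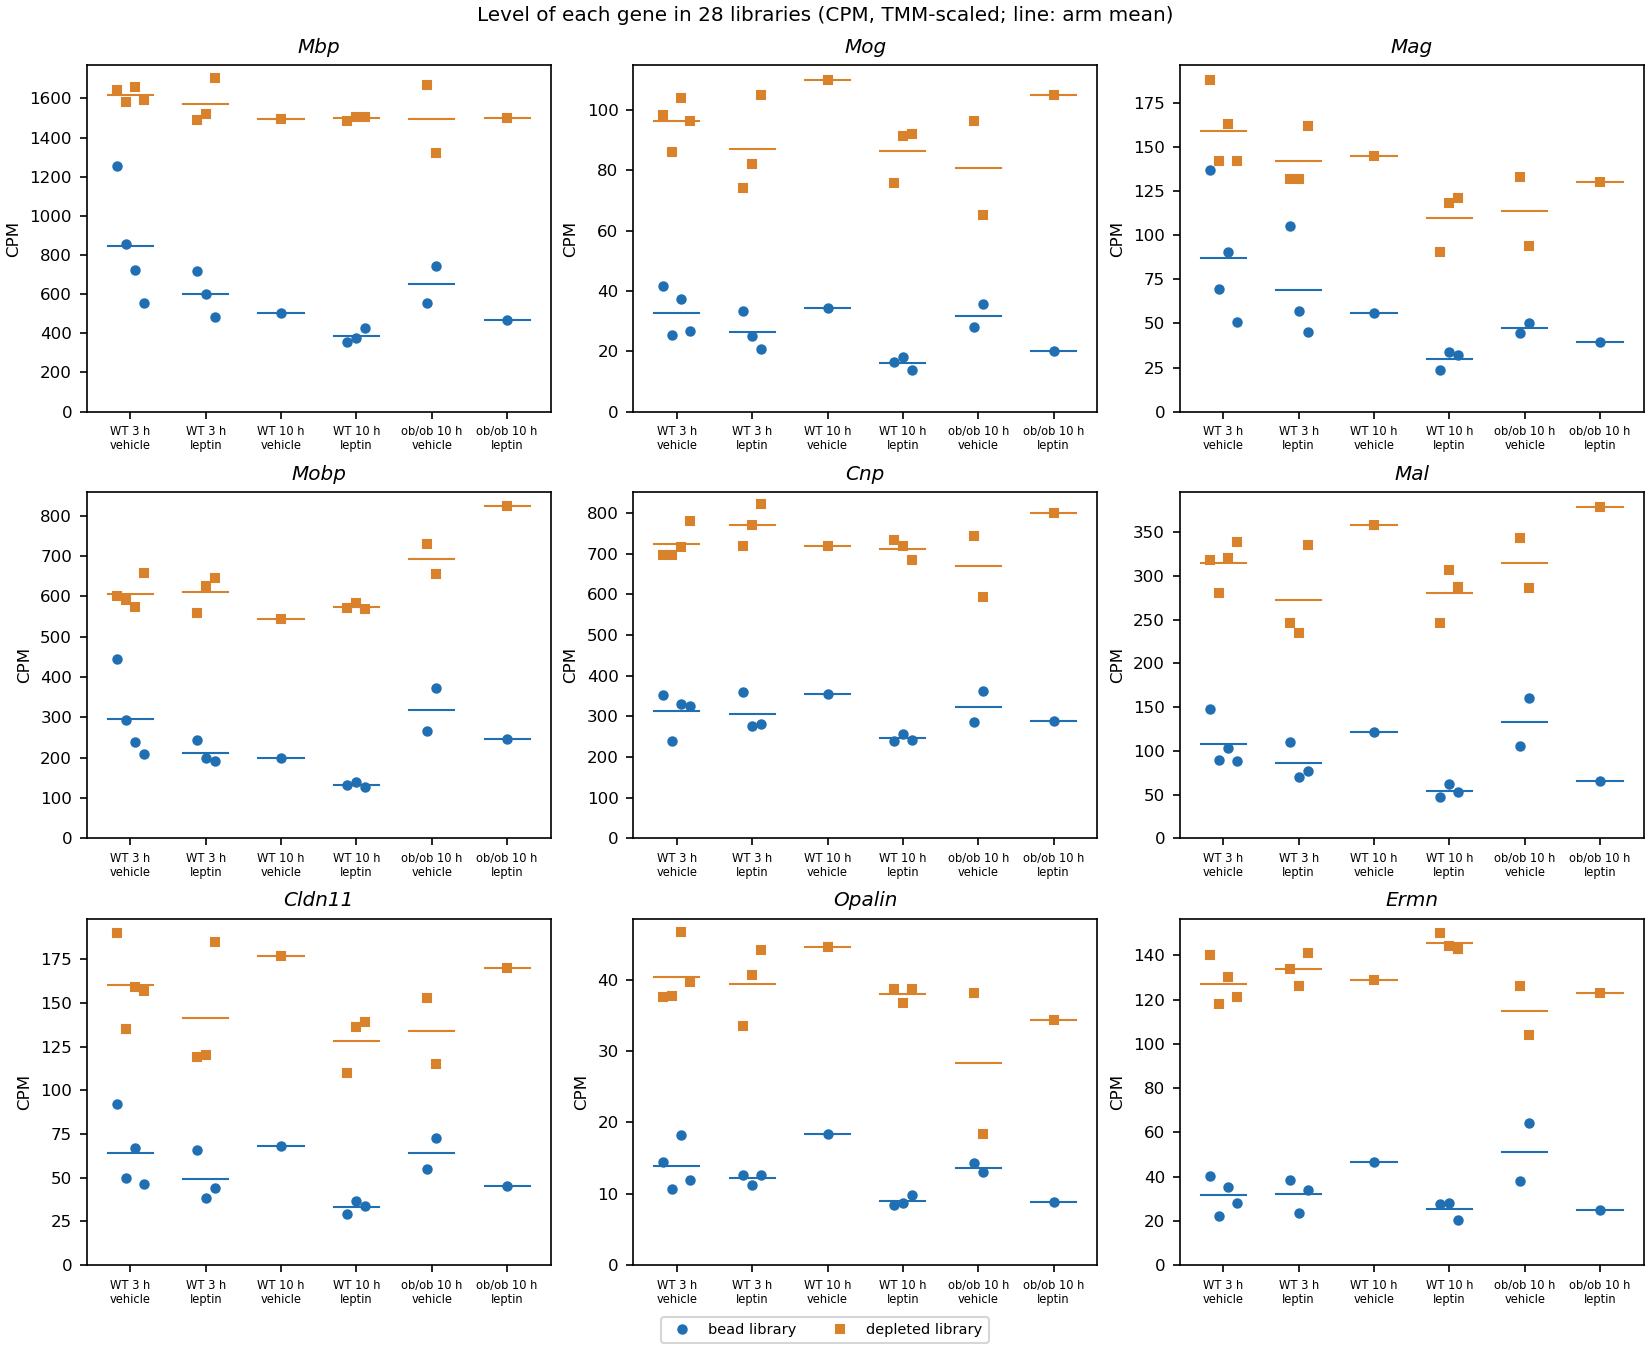
Level of each of the 9 genes in the 28 libraries (y axis, CPM scaled by TMM, from 0) by genotype, time and treatment (x axis); circles are bead libraries, squares depleted libraries and lines the mean of each group. Depleted squares lie above the bead circles of every group, and bead circles of the leptin groups at 10 h (Mbp 355 to 467 CPM) lie low in most panels.

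Setting the bead library of a lysate against its depleted partner shows which transcripts were relatively higher or lower in the captured RNA. RNA held on the beads without tagged ribosomes was not measured. All 9 genes were lower in beads, in 14 of 14 lysates each. Mbp had 555 to 1255 CPM in the 4 vehicle bead libraries of wild type at 3 h, as 1255, 855, 724 and 555 CPM. Their depleted partners held 1642, 1583, 1659 and 1590 CPM, so the groups did not overlap, although vehicle f1 came near with 1255 against 1642 CPM. Across all lysates Mbp was lower by 2.66-fold in beads (log2 fold change -1.41, SE 0.126, edgeR adjusted p = 5.69e-08).

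Ermn showed the largest difference, 4.04-fold (log2 fold change -2.01, SE 0.137, adjusted p = 2.36e-09). Its 14 bead libraries spanned 20.5 to 64.3 CPM with a median of 31 CPM, below the depleted range of 104 to 150 CPM. Mog and Mal followed at -1.81 (SE 0.139, adjusted p = 9.09e-09) and -1.79 (SE 0.137, adjusted p = 1.04e-08). Opalin was at -1.62, Cldn11 at -1.52, Mobp at -1.48 and Mag at -1.31 on the log2 scale, with standard errors of 0.106 to 0.139. Cnp had the smallest and most precisely measured difference, -1.29 (SE 0.0671, adjusted p = 4.1e-12). The median over the 9 genes was -1.52, beside -0.01 over all 19682 genes tested, of which 39.3% passed the test as lower and 77.9% in either direction; 19.5% of all genes were lower in all 14 lysates. Without m3 and f2 the median of the 9 was -1.56, with 9 of 9 lower. Library totals without TMM moved the median of all genes in this comparison to -0.19, and the 9 genes stayed lower. In bulk RNA, fewer cells of a type and less RNA per cell cannot be told apart, nor can cell type and ribosome binding between these fractions.

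The difference was present in each genotype and time. In wild type at 3 h the 9 genes had a median of -1.44 (all 9 lower, as were 31.9% of all genes), in wild type at 10 h -1.76 (all 9 lower, 31.7% of all genes) and in ob/ob -1.48 (all 9 lower, 21.8% of all genes). Mbp stood at -1.20 in wild type at 3 h and -1.76 at 10 h, and the difference between these times was -0.56 (SE 0.24, adjusted p = 0.324). No member passed the test of a difference between wild type at 10 h and 3 h by edgeR or DESeq2 (background 0% of all genes by edgeR; 1 of 9 at an unadjusted p under 0.05), and without the filter on low counts edgeR passed 5 of 9 (background 3.06%). Without m3 and f2 the median of that difference was -0.27, beside -0.34 with them, and none passed. None passed between ob/ob and wild type at 10 h by either tool (background 0.0102%; 0 of 9 at an unadjusted p under 0.05).

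Lysates differed in how far all 9 genes lay below their depleted partner, and the genes tended to shift together. The median over the 9 genes was -0.82 in ob/ob vehicle 2 and -1.04 in wild-type vehicle f1 at 3 h, the lysates with the smallest gap. It was -2.10, -2.06 and -2.04 in the 3 wild-type leptin lysates of 10 h, the largest gaps. Within 1 lysate the genes were spread over 0.40 (both ob/ob vehicle lysates) to 1.53 log2 units (vehicle f3 at 3 h). In vehicle f1 Mbp, Mobp and Mag stood at -0.39, -0.44 and -0.45, while Mal was at -1.10 and Ermn at -1.79 in the same tubes. In leptin f2 at 3 h Mag alone stood that high, at -0.33, with Mbp at -1.05, Mobp at -1.20 and Ermn at -1.80. Opalin lay above Ermn in 14 of 14 lysates, by 0.40 ± 0.18 (SD), and Cldn11 above Mal in 14 of 14, by 0.27 on average with an SD of 0.16. In ob/ob vehicle 2 every member lay between -0.90 (Mag) and -0.50 (Opalin). Lepr had 9.36 CPM in its beads against 2.96 CPM in its depleted RNA, a log2 ratio of 1.66. That ratio was 1.58 in ob/ob vehicle 1, where the median of the 9 genes was -1.58. The astrocyte gene Gfap had 86.7 CPM in the beads of ob/ob vehicle 2 against 46.1 CPM in those of vehicle 1.

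**Figure D2:**
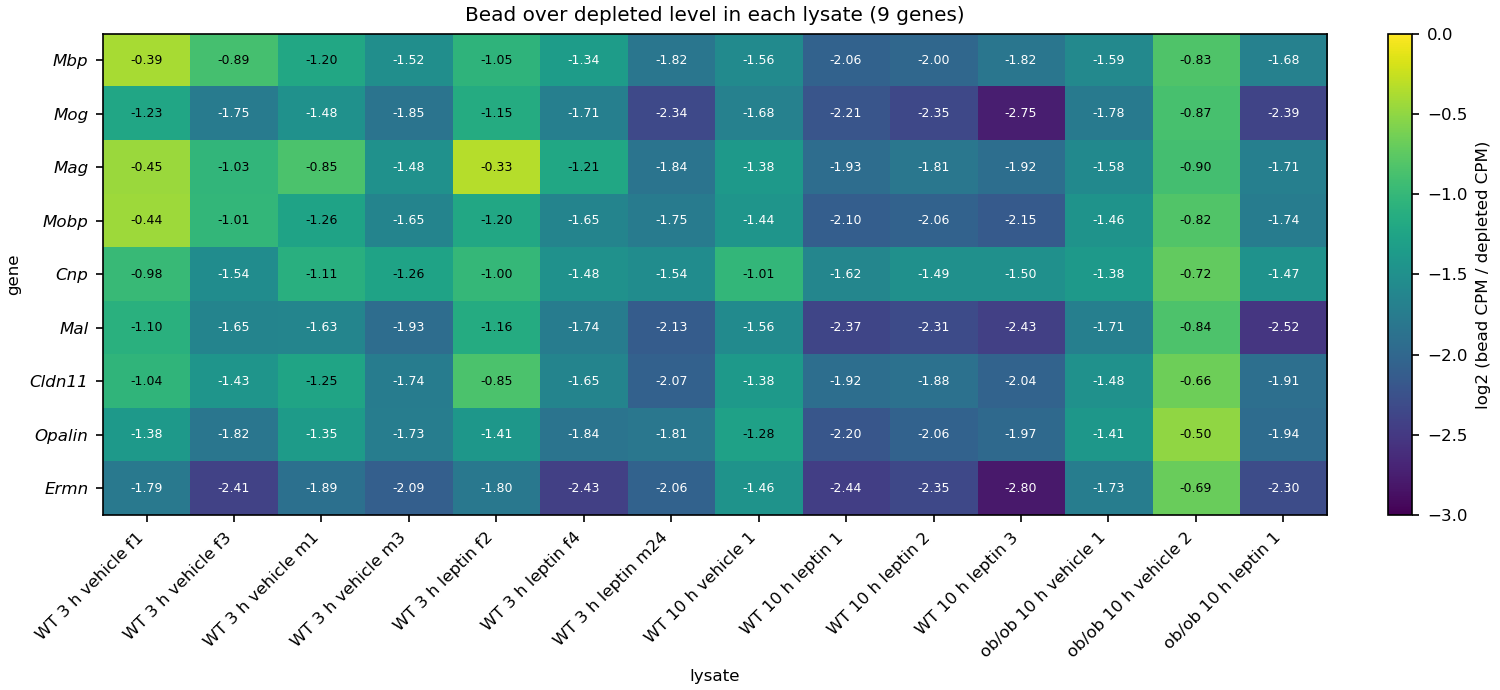
Difference between the bead and the depleted library of each lysate (columns) for the 9 genes (rows), as the log2 ratio of their CPM, in colour and as printed values. All entries are below 0; the column of ob/ob vehicle 2 is the lightest with a median of -0.82, and the 3 wild-type leptin columns of 10 h are the darkest, with medians of -2.10 to -2.04.

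Other genes of the oligodendrocyte lineage gave the same direction for the most part. Of 33 further oligodendrocyte genes, 32 were lower in beads and none higher, with a median of -1.50. Among the lowest were Ppp1r14a at -2.01 (SE 0.103, adjusted p = 7.02e-12) and Gjc3, a connexin gene, at -1.95 (SE 0.143, adjusted p = 5.35e-09). The highest were Qdpr at -0.35, Plekhb1 at -0.33 and Edil3 at -0.03 (adjusted p = 0.603), the one that did not pass. All 9 lineage transcription factors were lower, with a median of -1.62. Olig1 was lowest at -2.04, then Sox10 at -1.94 and Olig2 at -1.76, while Sox8 (-1.56), Zfp536 (-0.85) and Nkx2-2 (-0.48) were the highest.

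Earlier stages were more mixed. Of 9 genes of newly formed oligodendrocytes 6 were lower and 1 higher, with a median of -0.99: 9630013A20Rik (-1.93), Enpp6 (-1.79) and the receptor gene Gpr17 (-1.46) were lowest, Rras2 (-0.08) and Tmem163 (0.02) did not pass, and the kinase gene Fyn was higher at 0.16 (SE 0.027, adjusted p = 1.75e-05). Of 10 precursor genes 9 were lower and 1 higher, with a median of -1.02. Sapcd2 (-1.57), the sialidase gene Neu4 (-1.56) and the proteoglycan gene Vcan (-1.50) were lowest, Cacng4 (-0.20) and Lhfpl3 (-0.18) passed with small differences, and C1ql1 was higher at 0.32 (SE 0.0805, adjusted p = 0.0013). Of 6 tested genes of Schwann cells, which make the myelin of peripheral nerve, 4 were lower (Pmp22 -0.91, Prx -0.70, Drp2 -0.28, Ncmap -0.22), and Egr2 at -0.20 (adjusted p = 0.415) was among those that did not pass. Astrocyte and microglia genes were lower in 12 of 12 each, with medians of -1.21 and -1.68, and 12 of 12 LepRb neuron genes were higher, with a median of 3.15. Of 12 endothelial genes 4 were higher and 2 lower, with a median of 0.39.

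**Figure D3:**
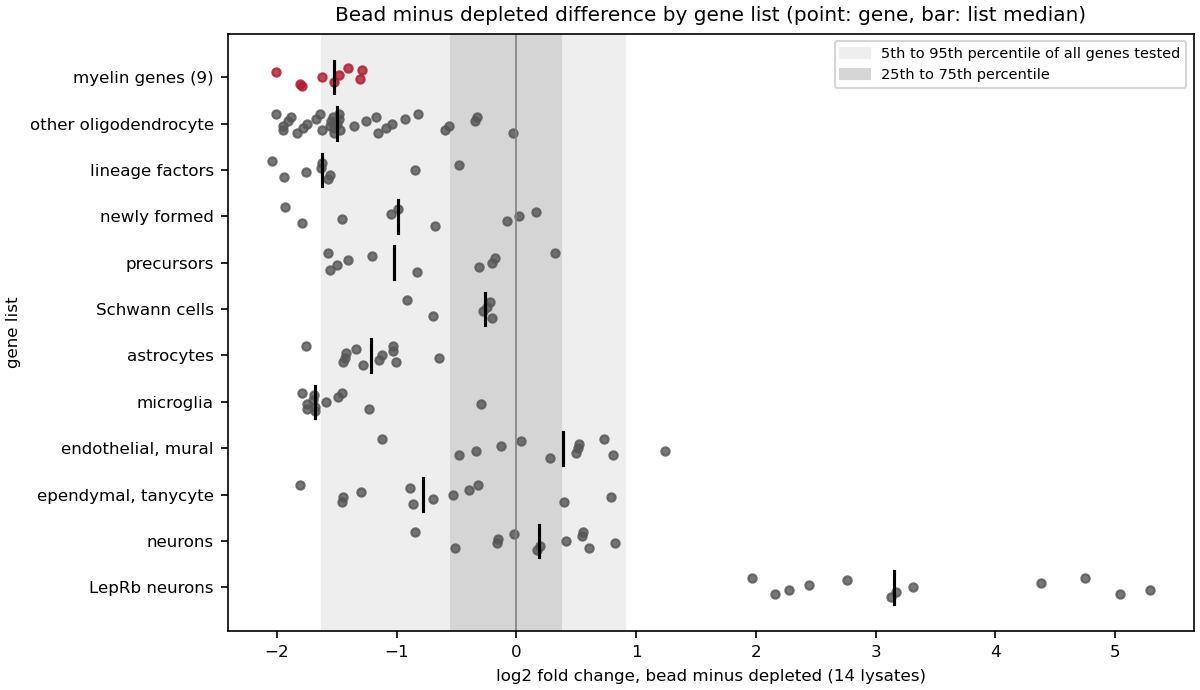
Difference between bead and depleted libraries (x axis, log2 fold change over 14 lysates) for the 9 myelin genes and the other gene lists (y axis); each point is a gene, each bar the median of its list, and the grey bands hold the middle of all genes tested (5th to 95th and 25th to 75th percentile). The 9 myelin genes lie between -2.01 and -1.29, and LepRb neuron genes lie on the opposite side with a median of 3.15.

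As a description of sequence, the 250 bases upstream of the starts of these genes were searched for motifs of lineage factors. Whether such motifs relate to the shifts between lysates was not tested. RefSeq promoters of GRCm38.p6 were searched for 8 members, and Mbp was not searched. The SOX core ACAANG, searched on both strands, was in 6 of 8, beside 36.6% of 27025 mouse promoters of the same length. The Myrf core CTGGNAC, also on both strands, was in 3 of 8 (Mog, Mag and Cnp), beside 16% of all. Mag and Cnp each held 2 matches to the Myrf core, and 1.6% of promoters held 2 or more. Mobp held 6 matches to the SOX core ACAANG, and 0.0185% of promoters held 6 or more. All 6 were ACAAAG on the strand opposite to the gene, in a T-rich stretch. For ACAAAG alone 0.0037% of promoters held 6 or more. Mal and Cldn11 held no match to either. The 3 promoters with the most matches are printed 5′ to 3′ on the strand of the gene, with matches of either motif in capitals. A match is a string of letters and was not tested as a binding site.
Mobp: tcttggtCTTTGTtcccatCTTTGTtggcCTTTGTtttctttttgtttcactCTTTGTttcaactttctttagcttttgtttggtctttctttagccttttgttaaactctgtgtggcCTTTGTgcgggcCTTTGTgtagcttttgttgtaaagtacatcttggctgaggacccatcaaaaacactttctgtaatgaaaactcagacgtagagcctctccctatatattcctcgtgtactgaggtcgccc
Mag: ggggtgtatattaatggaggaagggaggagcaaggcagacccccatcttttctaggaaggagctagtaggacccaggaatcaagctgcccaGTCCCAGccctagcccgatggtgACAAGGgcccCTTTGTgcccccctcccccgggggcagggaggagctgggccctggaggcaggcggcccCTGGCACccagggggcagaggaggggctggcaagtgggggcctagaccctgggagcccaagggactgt
Cnp: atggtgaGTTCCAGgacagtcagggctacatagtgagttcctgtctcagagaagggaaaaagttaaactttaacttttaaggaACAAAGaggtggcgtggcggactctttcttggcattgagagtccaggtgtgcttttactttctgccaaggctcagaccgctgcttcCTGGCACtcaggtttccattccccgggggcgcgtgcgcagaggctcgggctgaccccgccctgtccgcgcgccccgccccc
These windows lie at chr9:120149492-120149741 on the plus strand (Mobp), chr7:30914864-30915113 on the minus strand (Mag) and chr11:100574689-100574938 on the plus strand (Cnp). The genes themselves span chromosome 9 from 120149707 to 120181484, chromosome 7 from 30899176 to 30914873 and chromosome 11 from 100574904 to 100591729 in the GRCm38 annotation of the count IDs, whose starts differ slightly from those of RefSeq. The library kit did not mark the strand, and Cnp overlaps Dnajc7, Ermn overlaps Galnt5, Mog overlaps Gm22388 and Mbp overlaps Rpl21-ps8 on the opposite strand, so reads of these pairs cannot be told apart there. Mobp overlaps Gm38642 on its own strand.

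Leptin was compared with vehicle within each time and fraction, to ask whether bead RNA or depleted RNA differed. At 3 h no member passed the test in beads (background 0.022% of 18212 genes; 1 of 9 at an unadjusted p under 0.05; none by DESeq2). The vehicle bead libraries held Mobp at 444, 293, 239 and 210 CPM and the leptin libraries at 243, 199 and 192 CPM. Vehicle f1 was the high library and the groups overlapped. Mobp differed by -0.50 (SE 0.22, adjusted p = 0.657) and by -0.23 without vehicle f1. Mag held 137, 69.7, 90.2 and 50.9 CPM in vehicle and 105, 57.1 and 45.3 CPM in leptin beads, an almost complete overlap (-0.34, SE 0.342, adjusted p = 0.834). Over the 9 genes the median was -0.33, from -0.50 to 0.02, beside -0.01 for all genes. Without the pituitary-rich lysates m3 and f2, Mag was at -0.97 (adjusted p = 0.106) and Mbp, at -0.50 with all lysates, was at -0.82 (adjusted p = 0.103). For both genes m3 was the lowest vehicle and f2 the highest leptin bead library. Leaving out this pair therefore makes their differences more negative by construction. In the depleted fraction at 3 h none passed (background 0%; 0 of 9 at an unadjusted p under 0.05; none by DESeq2), and the median was -0.05, or -0.03 without m3 and f2. Without the filter on low counts edgeR passed 2 of 9 in 3 h beads, Mbp and Mobp (background 0.545%).

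At 10 h all 9 genes had lower values in leptin than in vehicle beads, and none passed the edgeR test (background 0.022%; 6 of 9 at an unadjusted p under 0.05, as did 9.09% of all genes). Mal held 121 CPM in the wild-type and 105 and 160 CPM in the ob/ob vehicle beads. The leptin beads held 47.3, 62 and 53.2 CPM in wild type and 65.9 CPM in ob/ob, so every leptin library lay below every vehicle library. The mean difference of both genotypes was -1.10 (SE 0.242, adjusted p = 0.211). Mog gave 34.3, 28 and 35.7 CPM in vehicle against 16.4, 18, 13.7 and 20.1 CPM in leptin beads, again without overlap (-0.90, SE 0.22, adjusted p = 0.258). Ermn held 46.8, 38.2 and 64.3 CPM in vehicle and 27.5, 28.2, 20.5 and 25 CPM in leptin beads (-0.98, SE 0.262, adjusted p = 0.311), and Opalin 18.4, 14.3 and 13 against 8.43, 8.78, 9.9 and 8.91 CPM (-0.84, SE 0.188, adjusted p = 0.211). Neither gene's groups overlapped. The remaining genes were at -0.79 (Cldn11), -0.60 (Mag), -0.49 (Mobp), -0.45 (Mbp) and -0.36 (Cnp), and the median over the 9 was -0.79 beside -0.01 for all genes.

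Every leptin library lay below every vehicle library for 7 of the 9 genes in beads at 10 h, all but Mobp and Cnp, beside 7.63% of all genes. With DESeq2, which tests each gene against a different estimate of spread, 4 of 9 passed, with a background of 0.593%: Mal (-1.09, adjusted p = 0.00257), Opalin (-0.83, adjusted p = 0.0133), Mog (-0.89, adjusted p = 0.0291) and Ermn (-0.97, adjusted p = 0.0369). Without the filter on low counts edgeR passed 8 of 9, all but Cnp, with a background of 1.33%. That fit tested 35036 genes, down to 1 count, against 18212 with the filter. The edgeR adjusted p of Mal fell from 0.211 to 4.41e-11, while its fold change stayed within -1.24 to -0.93 in every alternative. Calls without the filter, here and in the other comparisons, are therefore given as a check of sensitivity and not as support. The wild-type arm has 1 vehicle library and the ob/ob arm 1 leptin library, so either arm of the comparison rests on that library. In wild type alone the median was -0.92 and in ob/ob alone -0.52, with 0 of 9 past the test in each (background 0% and 0.0275%; 6 and 3 of 9 at an unadjusted p under 0.05, as did 4.83% and 3.94% of all genes; DESeq2 was not run on single genotypes). The difference between genotypes did not pass for any member (edgeR adjusted p = 1 for each; 0 of 9 at an unadjusted p under 0.05; background 0%), nor did that between 10 h and 3 h in wild type (edgeR adjusted p of 0.993 to 0.997; 4 of 9 at an unadjusted p under 0.05, as did 3% of all genes; background 0%).

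In the depleted libraries of the same 10 h lysates the median was 0.01, the same as for all genes, and none passed (background 0.00523%; 1 of 9 at an unadjusted p under 0.05; none by DESeq2). Mal held 358, 343 and 286 CPM in vehicle and 246, 307, 287 and 379 CPM in leptin depleted libraries, which overlapped. Its difference was -0.05 (SE 0.141, adjusted p = 0.944). That median joins a wild-type value of -0.24 with an ob/ob value of 0.26, and again 1 library stands on a side of each. The leptin effect in beads minus that in depleted RNA had a median of -0.71 at 10 h and was negative for 9 of 9 genes, and none passed by edgeR (background 0%; 7 of 9 at an unadjusted p under 0.05, as did 6.75% of all genes). Ermn was at -1.08 (SE 0.255, adjusted p = 0.441) and Opalin at -0.89 (SE 0.213, adjusted p = 0.406) in that test. DESeq2 passed 3 of 9 (Ermn, Mal and Opalin, adjusted p = 0.00712, 0.0189 and 0.0299, with a background of 0.254%). Without the filter on low counts edgeR passed 9 of 9 in that test (background 0.946%). Leaving out ob/ob vehicle 1 left vehicle 2 as the lone ob/ob vehicle lysate. Vehicle 2 had the smaller gap between fractions (Opalin -0.50 against -1.41, Ermn -0.69 against -1.73). That refit therefore makes the 10 h difference more negative by construction, and its calls are not used as support here. At 3 h the same difference had a median of -0.15. None passed by edgeR (background 0.0102%, 0 of 9 at an unadjusted p under 0.05) or by DESeq2. Without m3 and f2 the median was -0.54 and none passed. By median of the 9 genes, m3 (-1.73) had the largest gap of the 3 h vehicle lysates and f2 (-1.15) the smallest of the leptin lysates. Leaving out this pair therefore makes that difference more negative by construction.

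One response common to 3 h, 10 h and ob/ob was also estimated, with the run as a covariate. In beads the 9 genes were all negative, with a median of -0.49 beside 0.01 for all genes, and none passed by edgeR with all lysates (background 0.022%; 6 of 9 at an unadjusted p under 0.05, as did 11% of all genes). DESeq2 passed Mal (-0.68, adjusted p = 0.0249) and Mog (-0.59, adjusted p = 0.0491), with a background of 0.769%. Without the pituitary-rich lysates vehicle m3 and leptin f2, 7 of 9 passed as lower by edgeR, all but Cnp and Ermn, beside 2.35% of all genes. In 3 h beads m3 held the lowest vehicle and f2 the highest leptin value of Mbp (555 and 719 CPM), Mag, Mobp, Mal and Cldn11. For Mog and Opalin f2 was also the highest leptin value (33.4 and 12.7 CPM). Their m3 values, 26.6 and 12 CPM, lay below the vehicle means of 32.8 and 13.8 CPM. Leaving out this pair makes the leptin difference of all 7 called genes more negative by construction. Mal was then at -0.89 (adjusted p = 0.00815), Mog at -0.78 (adjusted p = 0.00963) and Opalin at -0.60 (adjusted p = 0.0471), while Cnp (-0.28, adjusted p = 0.18) and Ermn (-0.61, adjusted p = 0.127) did not pass. Leaving out leptin f2 alone passed Mog (-0.73, adjusted p = 0.0452) and Mal (-0.84, adjusted p = 0.0383), beside 0.265% of all genes. As f2 was the highest 3 h leptin bead library for Mog and Mal (33.4 and 110 CPM), this too makes their difference more negative by construction. Without the filter on low counts, and with all lysates, edgeR passed 8 of 9, all but Cnp, beside 1.75% of all genes. The calls therefore change with these lysates, with the filter and with the tool. In the depleted fraction the median was -0.03, or -0.02 without m3 and f2, and none passed in either (background 0.623%; 0 of 9 at an unadjusted p under 0.05; none by DESeq2).

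Other glial genes also had lower values in leptin beads, and none of those listed here passed the test. At 10 h the 33 further oligodendrocyte genes were negative in 33 of 33, with a median of -0.72 and none past the test. Of 12 astrocyte and 12 microglia genes all were negative, with medians of -0.80 and -1.04, and none passed. The summed astrocyte genes spanned 998 to 1346 CPM in the 3 vehicle and 787 to 871 CPM in the 4 leptin beads at 10 h. The summed microglia genes spanned 39.7 to 62.2 and 25.8 to 37.1 CPM, and the 9 myelin genes 1390 to 1876 and 880 to 1206 CPM. LepRb neuron genes, at 2932 to 3754 CPM in vehicle and 3365 to 4124 CPM in leptin beads, had a median of 0.19, and general neuron genes one of 0.05. The summed endothelial genes spanned 38.7 to 84.1 CPM in vehicle and 23.2 to 48.3 CPM in leptin beads. The part that glial RNA as a whole plays in the differences of the myelin genes was not tested.

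**Figure D4:**
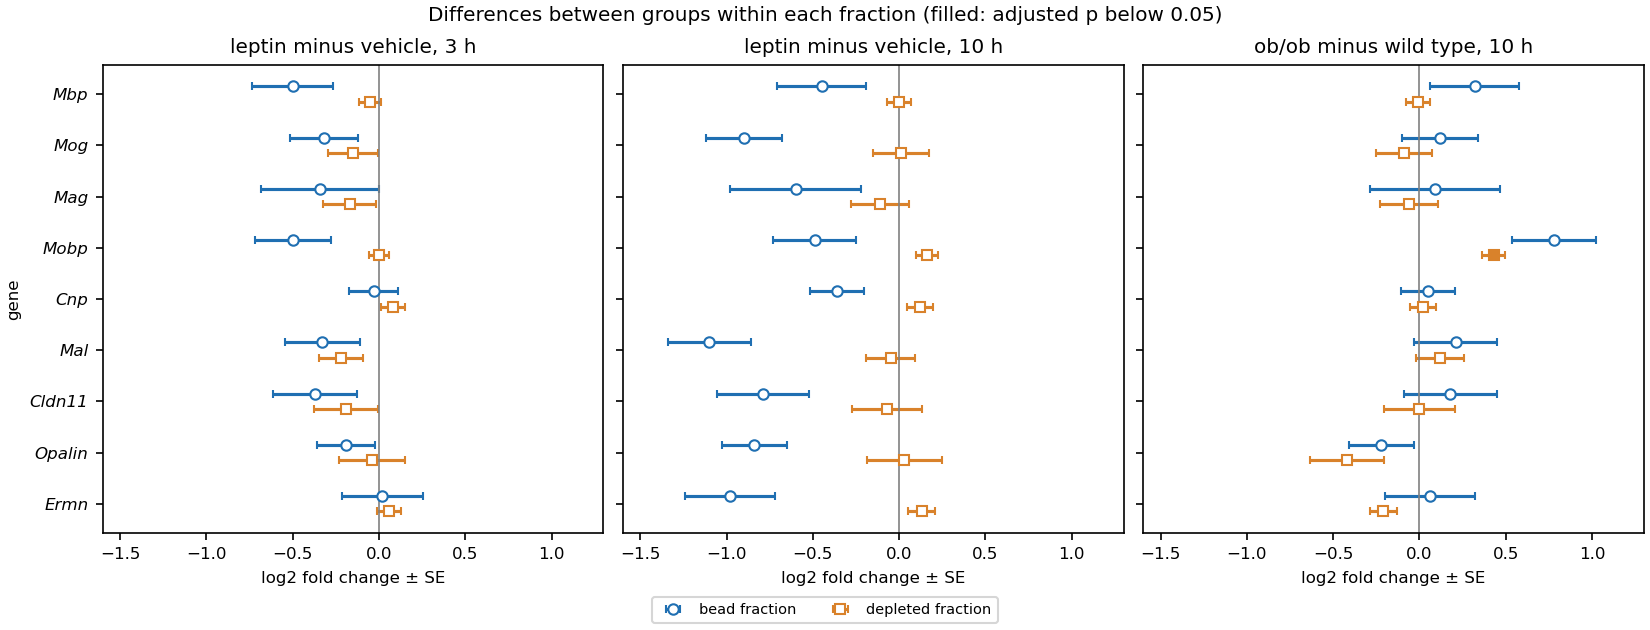
Log2 fold change with its standard error (x axis) for each of the 9 genes (y axis) in beads (circles) and depleted RNA (squares), for leptin against vehicle at 3 h and at 10 h and for ob/ob against wild type at 10 h; filled symbols passed the edgeR test. At 10 h the leptin difference in beads lies between -1.10 and -0.36 while that in depleted RNA lies between -0.11 and 0.16, and the filled symbol is Mobp in ob/ob depleted RNA at 0.43.

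Between ob/ob and wild-type mice at 10 h, Mobp was higher in ob/ob depleted RNA. The 3 ob/ob libraries held 731 and 656 (vehicle) and 824 CPM (leptin), above the wild-type libraries at 543 (vehicle) and 572, 583 and 569 CPM (leptin), with no overlap. The difference was 0.43 (SE 0.0652, edgeR adjusted p = 0.0036), 1.35-fold, and stayed at 0.38 to 0.45 when any lysate that could be left out was left out. Mobp was the only one of 9 to pass, beside 2.72% of all genes higher and 5.57% called in either direction. The wild-type 3 h depleted libraries, from another run, spanned 560 to 658 CPM and overlapped with the lowest ob/ob library. In beads Mobp held 266, 373 and 246 CPM in ob/ob against 200, 133, 140 and 128 CPM in wild type, also without overlap. The edgeR difference was 0.78 (SE 0.242, adjusted p = 0.261), and 0.77 without vehicle f1 at 3 h, where it passed (adjusted p = 0.0284). That lysate, the highest for Mobp in beads (444 CPM), is in neither group and enters through the estimate of spread. With single lysates left out, 40 to 121 of all genes were called in this comparison. The share of all genes without overlap between the genotypes was not counted in either fraction.

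The remaining 8 genes did not pass. Without the filter on low counts 3 of 9 passed (background 5.07%), Mobp and, as lower, Opalin and Ermn. Mbp, the other basic protein gene of the compact sheath, was at -0.01 (SE 0.0701, adjusted p = 0.966) and Cnp at 0.02 (SE 0.0769, adjusted p = 0.889) in depleted RNA. Opalin was at -0.42 (SE 0.216, adjusted p = 0.294), with 18.4 CPM in ob/ob vehicle 2 against 38.1 in vehicle 1, 34.3 in leptin 1 and 36.7 to 44.5 CPM in wild type. Without ob/ob vehicle 1, Opalin was at -0.73 (adjusted p = 0.00981), and without ob/ob vehicle 2, the low library, at -0.21 (adjusted p = 0.289). Ermn was at -0.21 (SE 0.0773, adjusted p = 0.128), with 104 to 126 CPM in ob/ob and 129 to 150 CPM in wild type. These ranges did not overlap either, in the direction opposite to Mobp. In beads no member passed (background 0.472%; 1 of 9 at an unadjusted p under 0.05; none by DESeq2), and the median was 0.12 beside 0.01 for all genes. Of the 33 further oligodendrocyte genes 1 passed in depleted RNA, Il33, an alarmin cytokine, lower at -0.81 (SE 0.195, adjusted p = 0.041) and named after its value was seen. Sequencing run and genotype cannot be told apart in any of these values.

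Between wild-type beads at 10 h and 3 h no member passed the edgeR test (background 0%; 3 of 9 at an unadjusted p under 0.05, as did 17.7% of all genes). Mag was at -0.93 (SE 0.329, adjusted p = 0.211), Mbp at -0.69 (SE 0.221, adjusted p = 0.191) and Mobp at -0.61 (SE 0.206, adjusted p = 0.197). Opalin (-0.01, SE 0.151), Cnp (-0.06, SE 0.129) and Ermn (0.12, SE 0.211) lay within 1 SE of 0. DESeq2 passed Mbp alone (-0.69, adjusted p = 0.0362; background 2.54%), and edgeR without the filter on low counts passed 3 of 9, these being Mag, Mbp and Mobp (background 3.86%). Without the 3 h lysates m3 and f2 none passed, with Mag at -0.80 (adjusted p = 0.0824), Mbp at -0.69 (adjusted p = 0.0722) and Mobp at -0.62 (adjusted p = 0.113). Other lists were also lower at 10 h with no gene past the test: 12 of 12 endothelial genes were negative with a median of -1.54, 11 of 12 astrocyte genes with -0.70, 9 of 10 precursor genes with -0.64 and 29 of 33 further oligodendrocyte genes with -0.33. Their part in the values of the 9 genes, whose median was -0.24, was not tested. In depleted RNA the median was 0.01, or -0.04 without m3 and f2, and none passed (background 7.18%; 1 of 9 at an unadjusted p under 0.05; none by DESeq2). The wild-type 10 h libraries serve in this comparison and in that with ob/ob, so the values of the 2 comparisons are not independent.

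Genes were also ranked by the correlation of their log2 CPM with the mean log2 CPM of the 9 genes. This is a description over 14 libraries per fraction that share groups and runs. Each member was set against the mean of the other members. In depleted RNA Mog followed the mean of the other members most closely (Pearson r = 0.940), while Ermn (0.243) and Mobp (0.081) did not track it. Among the 10 genes most alike outside the 9 in depleted RNA were Tmem125 (0.927), Cers2, a ceramide synthase (0.920), and the myelin lipid enzymes Fa2h (0.888) and Ugt8a (0.864). Pomgnt1, Sema4d, Cnnm2, Zdhhc9 and Tmbim1 were at 0.859 to 0.898. In beads all members tracked the mean of the others, from Ermn (0.662) to Cldn11 (0.975). Among the 10 most alike there were the choline transporter gene Slc44a1 (0.968), Gria3 (0.961), Fkbp9, Mia3, Tmbim1 (0.959), Il1rap (0.957), the astrocyte gene Aldh1l1 (0.952), Grik1 and Plpp3. Tmbim1 was in both sets of 10.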

How the data were processed

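Raw read counts per gene, deposited by the authors, were used as they stand; per the submitters' processing notes reads were aligned with STAR 2.7.6a to GRCm38.p6, while the program that counted reads, its strand setting and its annotation are not stated there. Poly(A) RNA was sequenced for 50 cycles, single end, per the labels' protocols. The sequencing run of each library came from the deposited metadata. The 9 genes and the gene lists were chosen with earlier results of these data known.

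A gene entered a fit when 3 or more libraries had 10 or more counts. The test was edgeR's robust quasi-likelihood F test (edgeR 4.0.16, limma 3.58.1, R 4.3.3) after TMM scaling; it is two-sided, p-values were adjusted by Benjamini and Hochberg's method across the whole table, and adjusted values under 0.05 passed. Fractions and interactions were compared with the lysate as a block, since the labels give both libraries of a lysate 1 name. As a check, the bead library correlated best with its own depleted library in 10 of 10 lysates that could be checked (r of 0.0812 to 0.33). Leptin, genotype and time were fitted within a fraction over the 6 groups, and the 10 h effect is the mean of both genotypes, so a group with 1 library is taken to vary like the others. The scripts were tested on simulated data. The alternatives were DESeq2 1.42.0, other scalings, no filter on low counts, no block, and lysates left out. Named list genes are the 3 lowest and 3 highest of each oligodendrocyte or Schwann list between fractions; some results are not reported here. Genes most alike are the 10 with a mean of at least 1 CPM and the highest Pearson correlation with the mean log2 CPM of the 9. Promoters are from RefSeq.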

Additional observations from a re-analysis of the deposited data

How the results depend on the processing

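All 180 fold changes of the 9 genes between fractions kept their direction and call. Of 1110 fold changes followed gene by gene, 1037 kept both, 56 passed the test anew, 17 turned sign and 0 lost a call. They cover all 9 genes between fractions and for leptin in 3 h, 10 h and shared beads. Leptin by fraction at 10 h and 10 h against 3 h beads are also covered for all 9. For ob/ob against wild type they cover Mobp, Opalin and Ermn, and the other comparisons are not in this count. The causes of the changes below were not tested. Depth allowed a counting error of 7.47% at most, and 2 groups hold 1 lysate each; leaving out such a lone lysate gave no value for comparisons that need it.

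Without a filter on low counts (at least 1 count), the members called were 2 (leptin 3 h beads), 1 (3 h depleted), 8 (10 h beads), 8 (shared beads), 3 (shared depleted), 9 (leptin by fraction, 10 h), 1 and 3 (ob/ob beads and depleted), 3 and 1 (10 h against 3 h, beads and depleted) and 5 (fraction, wild type 10 h minus 3 h). Genes called in that order were 191, 640, 465, 613, 1422, 370, 394, 1901, 1351, 2195 and 1199, with 592 for 10 h depleted, 24 for leptin by fraction at 3 h and 109 for fraction, ob/ob minus wild type. The main counts of genes were 4, 0, 4, 4, 119, 0, 86, 1064, 0, 1372 and 0, with 1, 2 and 2.

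DESeq2 called 4 members in 10 h beads, 2 in shared beads, 3 in leptin by fraction at 10 h and 1 in 10 h against 3 h beads. It called 22 and 62 genes (3 h beads, depleted), 108 and 116 (10 h), 140 and 723 (shared), 7 and 50 (leptin by fraction, 3 and 10 h), 228 (ob/ob beads), 463 (10 h against 3 h beads), and 139 and 28 (fraction by time and by genotype). Without vehicle m3 and leptin f2, 7 members were called in shared beads. Genes called were then 34 and 1 (3 h beads, depleted), 15 and 2 (10 h), 423 and 23 (shared), 79 and 6 (leptin by fraction), 130 (ob/ob beads), 124 (10 h against 3 h beads), and 113 and 19 (fraction by time and genotype), Ermn turned to -0.19 in 3 h beads and Cnp to 0.02 in 10 h against 3 h beads.

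RLE scaling gave 20 genes in shared beads. Library totals gave 1 for leptin by fraction at 10 h and 0 for fraction by genotype, and made 64.8% of the genes called between fractions lower, against 50.4%. Without the replicate block these counts were also 1 and 0, and the 9 members stayed called between fractions; the block changed no other call of a member.

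With single lysates left out, members called were 0 to 2 in shared beads, 0 to 2 in leptin by fraction at 10 h, 0 to 1 in ob/ob beads and 1 to 2 in ob/ob depleted RNA. Genes called were 3 to 17 and 0 to 14 (3 h beads, depleted), 3 to 21 and 1 to 16 (10 h), 2 to 82 and 0 to 258 (shared), 0 to 8 and 0 to 51 (leptin by fraction, 3 and 10 h), 40 to 121 and 533 to 1427 (ob/ob), 0 to 231 and 577 to 1771 (10 h against 3 h), and 0 to 117 and 0 to 4 (fraction by time and genotype). In 3 h beads Cnp ranged from -0.17 to 0.06 and Ermn from -0.14 to 0.22. In 10 h against 3 h beads Cnp ranged from -0.12 to 0.01 and Opalin from -0.06 to 0.08, and in ob/ob beads Ermn from -0.16 to 0.22.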
